A study of Sus scrofa with 12 samples.

Results

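Endometrial transcriptomes of sows that received the high-fiber diet together with N-carbamylglutamate (NCG), the H + N group, were compared to those of sows on the low-fiber diet without NCG, the L − N group. The group codes in the library titles assigned 6 of the 12 libraries of the series to this comparison, 3 to each group. The H + N diet held 7.46% crude fiber and 0.05% NCG, whereas the L − N diet, which served as the basal control, held 3.73% crude fiber and no added NCG. All sows were pregnant Landrace × Yorkshire animals of parity 2 or 3, and the diets were fed from breeding through 114 days of gestation. Soybean bran and beet pulp took the place of part of the corn in the high-fiber diet, so the diets also differed in ingredients. The remaining groups, low fiber with NCG (L + N) and high fiber without NCG (H − N), had 3 libraries each and entered the model only to estimate the spread, except where they are named. The question was how fiber and NCG given together changed gene expression in the uterus, and it was asked here across all genes and across the pathway and biological process annotation of the deposited table.

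The endometrium is the lining of the uterus, made of a luminal and glandular epithelium on a stroma that holds vessels and immune cells. In the pig the placenta does not invade it, so that the conceptus depends on what the epithelium secretes and carries across, and on the blood flow beneath. Estradiol and progesterone control its growth and secretion through receptors in epithelium and stroma. NCG is an analog of N-acetylglutamate, the activator of the first step of the urea cycle, and is fed to raise the supply of arginine, while dietary fiber is fermented to short-chain fatty acids.

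Each library gave between 15155660 and 17714918 counted reads in H + N and between 15797001 and 16916495 in L − N. Of 20674 genes in the table, 15351 passed the filter on low counts and were tested. Replicates differed by far more than counting error, with a chi-square per gene of 24.2 to 103 between libraries of the same group, where 1 would be counting error alone. By the study's methods 6 sows per group were sampled, but the labels do not tie a library to a sow, so the p-values measure the spread between these samples, which may in part be technical. The first principal component of the 6 libraries carried 41.0% of the variance and placed H + N at 36.5, 31.7 and 46.3 and L − N at −12.1, −51.9 and −50.5. Replicate 1 of L − N stood apart from the other L − N libraries, and on the second component (27.0%) it lay at −57.3.

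The labelled tissue was checked against marker genes, summed as CPM, the counts scaled to library size. Epithelial markers summed to 1458 to 1664 CPM in H + N and 1191 to 1781 CPM in L − N, and stromal markers to 36014 to 62654 and 30824 to 35099 CPM, so that both compartments were present in every library. The 10 smooth muscle markers summed to 1999.7 to 2012 CPM in H + N, to 2015 and 2555 CPM in L − N replicates 2 and 3, and to 6420.3 CPM in L − N replicate 1. The 14 macrophage markers summed to 1238 to 1572 CPM in H + N, to 1539 CPM in L − N replicate 1 and to 3914 and 4084 CPM in the other L − N libraries. Hemoglobin ranged widely within both groups, with HBB at 26.9, 284 and 206 CPM in H + N and 733, 61.4 and 499 CPM in L − N. The 9 tested markers of trophoblast and chorion summed to 217 to 232 CPM in H + N and to 164 to 183 CPM in L − N. Of these, 1 was called, the transcription factor ELF5, which rose by 1.59 (edgeR adjusted p = 0.0432). The members split in direction, with 5 positive and 4 negative log2 fold changes and a median of 0.21. The aromatase CYP19A1 and the dehydrogenase HSD3B1 of that list were not among the genes tested. In bulk tissue, fewer cells of a type and less RNA per cell cannot be told apart.

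A gene was called differentially expressed where the edgeR adjusted p was under 0.05 and the log2 fold change, given below with its standard error (SE), lay outside −1 to 1. The comparison of the diets called 549 genes, 3.58% of those tested, of which 352 (2.29%) were higher in H + N and 197 (1.28%) lower. By the adjusted p alone 1223 genes passed (7.97%), and 4215 genes had an unadjusted p under 0.05. The lowest H + N library lay above the highest L − N library in 2338 genes (15.2%), and the reverse held in 1956 (12.7%). Among the genes called, the groups did not overlap for 349 of the 352 higher and 176 of the 197 lower genes. The median log2 fold change over all genes tested was 0.02.

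**Figure D1:**
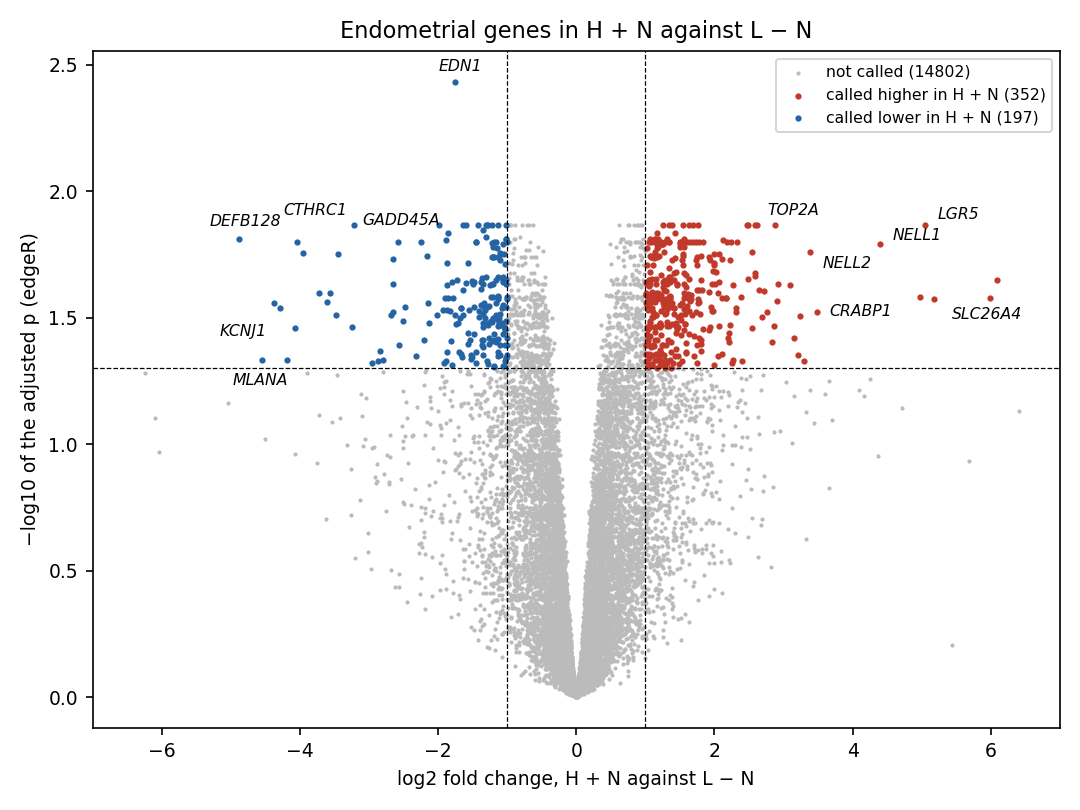
Change in H + N relative to L − N on the log2 scale (horizontal axis) and −log10 of the edgeR adjusted p (vertical axis) for 15351 genes, with dashed lines at the thresholds. EDN1 lies highest, among the 197 genes called lower, and SLC26A4 and LGR5 are among the genes with wide positive changes.

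The number of calls rested on few libraries. Leaving out H + N replicate 1 left 1 call, and leaving out its replicate 3 left 186. In L − N, leaving out replicate 1 gave 948 calls, replicate 2 gave 342 and replicate 3 gave 4. EDN1 was called in each of these fits. Without H + N replicate 1 it was the gene called, and without L − N replicate 3 the genes called were EDN1, CTHRC1, EPDR1 and DDIT4 (EPDR1 was named after its values were seen). All 549 genes kept their sign whichever library was left out, which for most follows from groups that do not overlap. The median log2 fold change of the 352 higher genes stayed between 1.29 and 1.52 and that of the 197 lower genes between −1.57 and −1.24. The tool and the libraries in the fit also moved the count, since DESeq2 called 1000 genes on the 12 libraries and edgeR called 87 on the 6 libraries alone. The calls below therefore share 1 limit, in that nearly all are lost without H + N replicate 1 or without L − N replicate 3.

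**Figure D2:**
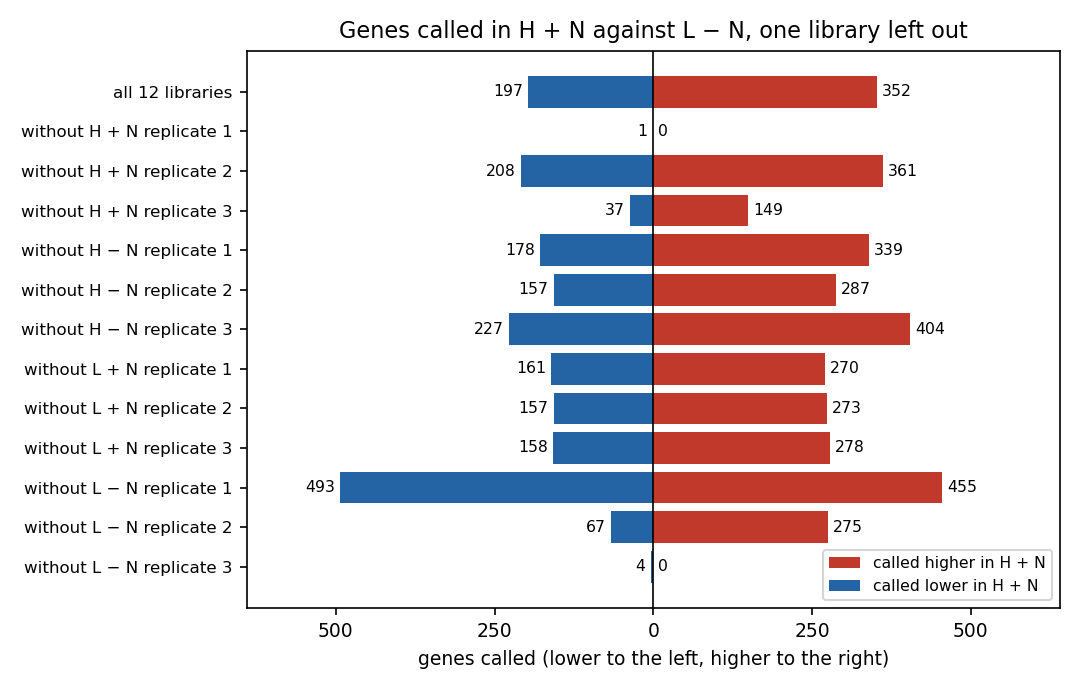
Number of genes called higher (to the right) and lower (to the left) in H + N against L − N in the fit of all 12 libraries and in fits that each lack 1 library. The bars nearly vanish without H + N replicate 1 (0 higher, 1 lower) and without L − N replicate 3 (0 higher, 4 lower), and the lower side grows from 197 to 493 without L − N replicate 1.

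Many genes of cell division were called higher in H + N. The lists below were written with earlier results of these data known. Among 37 condensins, mitotic kinesins and spindle proteins, which compact chromosomes and build the spindle, 27 rose and none fell, with a median log2 fold change of 1.37. All 37 lay above 0, and in 36 the H + N libraries did not overlap those of L − N. TOP2A, the topoisomerase that untangles sister chromatids (chromosome 12, 22001300 to 22028452 on Sscrofa11.1), measured 94.9, 111 and 124 CPM in H + N and 12.3, 32.2 and 10.5 CPM in L − N. The H + N libraries were alike, and L − N replicate 2 was the highest of its group. The log2 fold change of TOP2A was 2.59 (SE 0.39, edgeR adjusted p = 0.0136). KIF11, the motor that pushes spindle poles apart, measured 27.4, 24.5 and 30.7 CPM in H + N and 3.12, 9.47 and 3.90 CPM in L − N, with a log2 fold change of 2.32 (SE 0.392, edgeR adjusted p = 0.0158). MKI67, the classical proliferation antigen, stood at 85.03, 99.7 and 126 CPM in H + N and 30.8, 58.2 and 18.4 CPM in L − N and rose by 1.53 (SE 0.342, edgeR adjusted p = 0.0277). SMC4, the core of condensin, rose from 12.3, 17.1 and 10.1 to 49.5, 36.1 and 48.6 CPM, by 1.76 (SE 0.268, edgeR adjusted p = 0.0136), though it overlaps TRIM59 on the opposite strand and the strand used in counting is not given in the sources used here. SMC2, its partner, rose by 1.63 (edgeR adjusted p = 0.0222). KIF15, KIF23, PRC1, TPX2 and HMMR, which act in spindle assembly and cytokinesis, rose by 2.24, 1.34, 1.30, 1.36 and 1.96.

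The kinetochore, where microtubules take hold of the chromosome, and the checkpoint that watches it gave a similar picture. Of 41 genes, 14 rose and none fell, with a median of 1.14. CENPF measured 26.2, 32.4 and 30.3 CPM in H + N and 4.33, 13.5 and 4.37 CPM in L − N, a log2 fold change of 1.997 (SE 0.385, edgeR adjusted p = 0.0196). The checkpoint kinases TTK and BUB1 rose by 2.07 and 1.62, and BUB1B by 1.55 (edgeR adjusted p = 0.0196). CENPA, the histone that marks the centromere, measured 15.1, 15.5 and 16.9 CPM in H + N and 4.07, 8.97 and 2.96 CPM in L − N, and NDC80, which binds the microtubule, rose by 2.01 (edgeR adjusted p = 0.0232). SGO2, which guards cohesion at the centromere, rose by 2.12 (edgeR adjusted p = 0.0156). In each of these genes the 3 H + N libraries lay above the 3 L − N libraries, and L − N replicate 2 was nearest to them.

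Regulators of the cycle and genes of replication were called as well. Of 32 cell cycle transcription factors, cyclins and kinases, 11 rose and none fell (median 0.75). The mitotic cyclin CCNB1 measured 35.4, 36.3 and 49.4 CPM in H + N and 7.13, 25.1 and 7.99 CPM in L − N, a change of 1.59 (SE 0.406, edgeR adjusted p = 0.0398), and its kinase CDK1 rose by 1.44 (edgeR adjusted p = 0.0447). CCNA2 rose by 1.38 (edgeR adjusted p = 0.0187) and overlaps EXOSC9 on the opposite strand. E2F7 and E2F8, which repress late in S phase, rose by 1.84 and 1.64, and FOXM1, the activator of mitotic genes, by 1.63 (edgeR adjusted p = 0.0366). CCND1, which acts earlier in the cycle, stood at 121, 103 and 199.9 CPM in H + N and 86.3, 117 and 83.8 CPM in L − N and was not called (log2 fold change 0.56, edgeR adjusted p = 0.125), nor was E2F1, at 0.99 (edgeR adjusted p = 0.0925). Of 38 genes of replication licensing and the fork, 4 rose (CLSPN, MCM3, POLE2 and TICRR), and all 38 had a positive fold change, with a median of 0.62. MCM3, a subunit of the replicative helicase, measured 39.8, 47.9 and 82.7 CPM in H + N and 18.4, 32.6 and 19.1 CPM in L − N, and the change of 1.28 (edgeR adjusted p = 0.0466) was carried most by H + N replicate 3.

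In DNA repair by homologous recombination and the Fanconi pathway, 6 of 20 genes rose and none fell, with a median of 1.18. BRCA1 measured 25.2, 29.7 and 32.2 CPM in H + N and 11.14, 14.7 and 10.8 CPM in L − N, a log2 fold change of 1.25 (SE 0.189, edgeR adjusted p = 0.0136). BRCA1 overlaps NBR1 on the opposite strand. Its partner BARD1 rose by 1.34 (edgeR adjusted p = 0.0201), the helicase BLM by 1.45 (edgeR adjusted p = 0.0235) and HELLS, a remodeler of heterochromatin, by 1.45 (edgeR adjusted p = 0.0209). Outside this list, ATR, the kinase that answers stalled forks, measured 39.5, 35.96 and 35.7 CPM in H + N and 16.7, 18.6 and 14.2 CPM in L − N and rose by 1.17 (edgeR adjusted p = 0.0161), as did CHEK1, the kinase downstream of it, by 1.39 (edgeR adjusted p = 0.0277).

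The 5 lists of division and repair genes held 0 called members by edgeR when H + N replicate 1 or L − N replicate 3 was left out, while their medians stayed between 0.43 and 1.85 under every left-out library of the 2 groups. Without L − N replicate 2, the L − N library highest in these genes, the condensin and spindle list had 32 members called. Gene models called higher were longer than the rest, with a median length of 5454 bp against 3730 bp over all genes tested and 3203 bp for genes called lower. The share called higher was 0.714% in the shortest 10% of gene models and 4.17% in the longest 10%, and the median log2 fold change was −0.07 and 0.17. The 41 kinetochore genes had a median length of 2797 bp and the 37 condensin and spindle genes of 4735 bp. The other lists of division and repair had 3172 bp (replication), 3822.5 bp (cycle regulators) and 4793 bp (repair). Among lists with lower medians, described below, the uterine secretions had 1425 bp and the macrophage markers 2045.5 bp. The part of length in these changes was not tested. Gene models that overlap a neighbor, and whose reads cannot be told apart without the strand, also include CLSPN (AGO4), HMMR (NUDCD2), KIF3A (RAD50), IFT74 (LRRC19), PSAP (CDH23), CTSK (ARNT), TIMP2 (CEP295NL), AXIN2 (CEP112) and SLC7A7 (OXA1L).

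Each of the other diets was also set against the same L − N libraries. The median of the condensin and spindle list on the log2 scale was 1.37 for H + N, 1.59 for L + N and 0.71 for H − N, and that of the homologous recombination list was 1.18, 1.19 and 0.44. TOP2A averaged 119 CPM in L + N and 56.3 CPM in H − N, and MKI67 109.7 and 65.7 CPM. Of the 352 genes called higher in H + N, 352 had a positive log2 fold change in L + N and 350 in H − N. All 197 genes called lower had a negative log2 fold change in both groups. Since these values share their control libraries, they are not separate evidence. Set directly against L + N, the condensin and spindle list had a median of −0.14 in H + N, and against H − N it had 0.60.

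**Figure D3:**
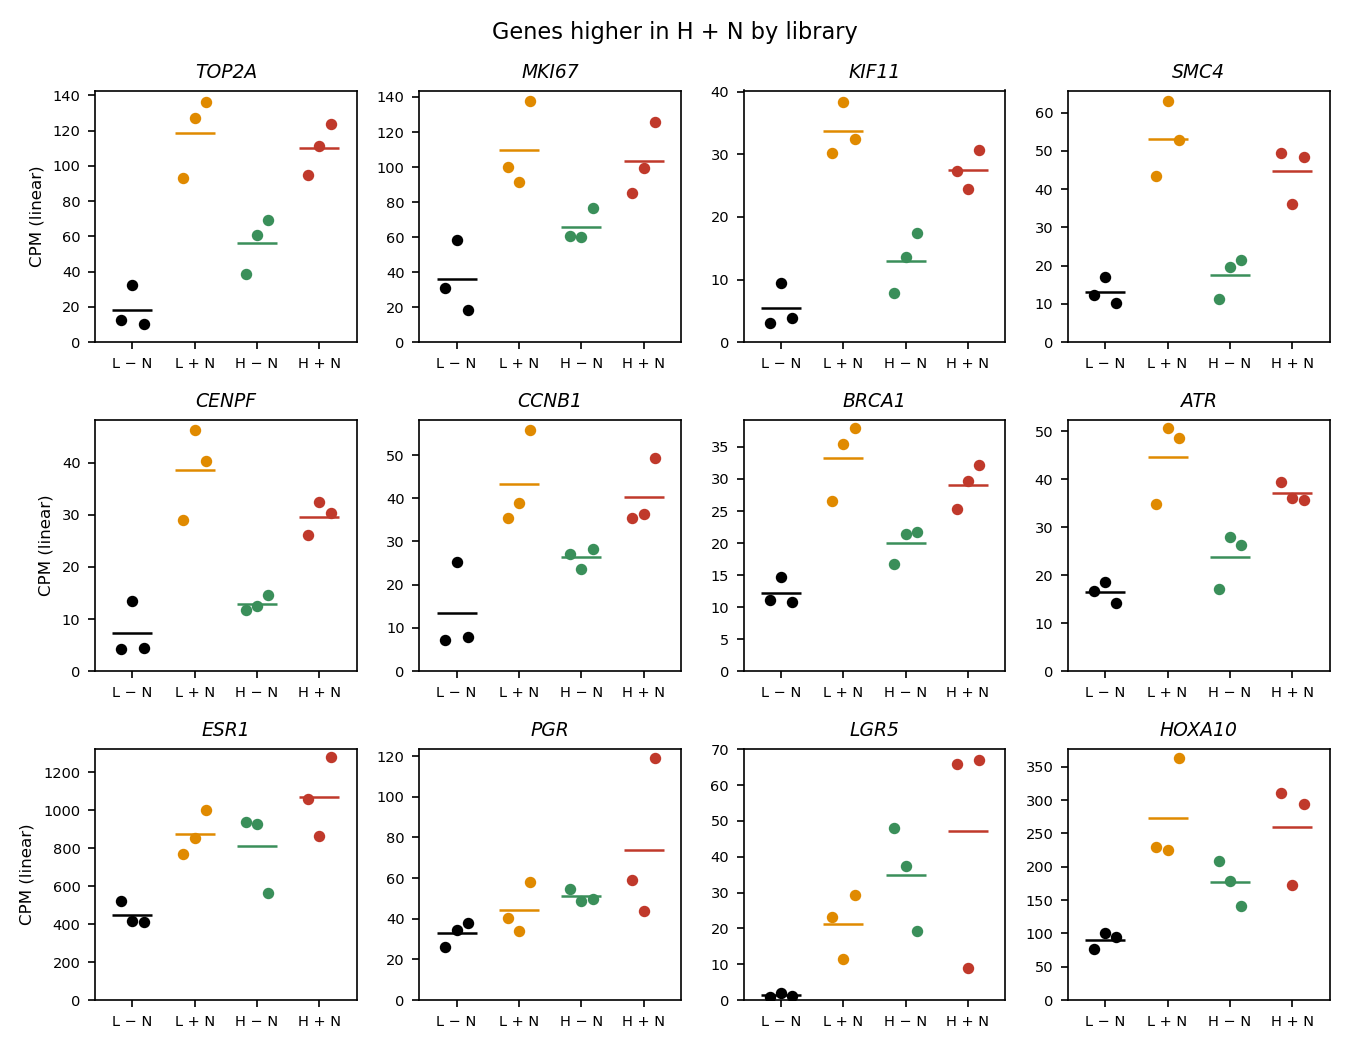
CPM of 12 genes in each library (points) with the group mean (bars) in the 4 diet groups, on linear axes that start at 0. For TOP2A the H + N libraries span 94.9 to 124 CPM and the L − N libraries 10.5 to 32.2 CPM, and ESR1 separates these groups as well.

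Among genes that hold the cycle back, those called were lower in H + N. Of 36 p53 targets and brakes of the cell cycle, 3 fell and none rose, with a median of −0.32. GADD45A, a stress-induced inhibitor of CDK1, measured 97.1, 120.0 and 114 CPM in H + N and 265, 432 and 528 CPM in L − N, and its log2 fold change was −1.89 (SE 0.308, edgeR adjusted p = 0.0156). PHLDA3, a p53 target that restrains Akt, stood at 26.2, 26.9 and 27.2 CPM in H + N and 51.1, 80.4 and 54.5 CPM in L − N, a log2 fold change of −1.21 (edgeR adjusted p = 0.0166). CDKN1A, the p21 inhibitor, overlapped, at 41.1, 56.4 and 40.5 CPM in H + N and 52.3, 98.9 and 59.8 CPM in L − N (log2 fold change −0.61, edgeR adjusted p = 0.109). The KEGG pathway of p53 signaling had 6 genes higher and 4 lower among 67. The 6 were ATR, CHEK1, CCNB1, CCNB2, CDK1 and GORAB, and the 4 included GADD45A, CD82 and STEAP3.

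The receptors ESR1 and PGR were called higher in H + N. ESR1, the estrogen receptor through which estradiol drives uterine growth (chromosome 1, 14217032 to 14604906), measured 1059.8, 866 and 1281 CPM in H + N and 523, 417 and 409.8 CPM in L − N, with no overlap and a log2 fold change of 1.25 (SE 0.218, edgeR adjusted p = 0.0161). PGR, the progesterone receptor, measured 59.3, 43.6 and 119 CPM in H + N and 26.4, 34.5 and 37.9 CPM in L − N. It was highest in H + N replicate 3 and stood just inside the threshold, at 1.17 (SE 0.324, edgeR adjusted p = 0.04997), and it was called in 4 of 18 alternative fits. HOXA10, the homeobox factor of the receptive uterus, rose from 76.1, 100.2 and 94.1 to 311, 173 and 294 CPM, by 1.52 (SE 0.258, edgeR adjusted p = 0.0158). Its neighbor in the cluster, HOXA11, was at 132, 72.1 and 215 CPM in H + N and 51.6, 78.5 and 65.3 CPM in L − N and was not called (log2 fold change 1.10, edgeR adjusted p = 0.0631). In all, 4 of 42 genes of steroid and prostaglandin signaling were called, all higher, and the list median was −0.09. ESR2, the second estrogen receptor, measured 2.77, 2.28 and 1.23 CPM in H + N and 4.39, 2.01 and 3.36 CPM in L − N and overlapped, as did the glucocorticoid receptor NR3C1 at 128, 116 and 89.8 CPM in H + N and 102, 95.9 and 128 CPM in L − N. OXTR, the oxytocin receptor, stood at 173, 132 and 54.9 CPM in H + N and 175, 239 and 185 CPM in L − N, with a fold change of −0.73 (edgeR adjusted p = 0.253). The KEGG estrogen signaling pathway had ESR1 and PGR higher among 106 genes. Beside 2.29% called higher over all genes tested, this count describes no change of the pathway.

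SLC26A4, an exchanger of chloride, iodide and bicarbonate, had the largest log2 fold change among called genes that averaged 1 CPM or more in a group and whose libraries did not overlap. Genes whose symbol starts with LOC were left out of this ranking. It measured 22.1, 3.31 and 16.9 CPM in H + N and 0.127, 0.251 and 0.269 CPM in L − N, a change of 5.99 (SE 1.31, edgeR adjusted p = 0.0264). H + N replicate 2 was the lowest of its group, and all L − N libraries were near 0. LGR5, a receptor for R-spondins and a marker of epithelial progenitors, measured 65.98, 8.96 and 66.9 CPM in H + N and 0.955, 2.01 and 1.28 CPM in L − N, again lowest in H + N replicate 2, and rose by 5.05 (SE 0.766, edgeR adjusted p = 0.0136). It overlaps TSPAN8, a tetraspanin on the opposite strand that rose by 2.87 (edgeR adjusted p = 0.0136), so the share of each in the other cannot be told apart. AXIN2, the feedback target of Wnt signaling, measured 185, 146 and 370.1 CPM in H + N and 141, 77.4 and 72.5 CPM in L − N and rose by 1.27 (edgeR adjusted p = 0.0443), and WNT6, a ligand, rose by 2.68 (edgeR adjusted p = 0.0313). These 3 were the members called among 41 of the Wnt and R-spondin list, whose median was −0.10 and turned to 0.30 without L − N replicate 1. WNT7A, an epithelial ligand needed for uterine glands, stood at 29.1, 7.28 and 29.7 CPM in H + N and 3.57, 12.4 and 2.22 CPM in L − N and was not called (log2 fold change 1.85, edgeR adjusted p = 0.135).

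Other genes with large increases were NELL1 and NELL2, secreted glycoproteins with thrombospondin-like domains. NELL1 measured 21.8, 8.04 and 35.01 CPM in H + N and 0.891, 0.564 and 1.61 CPM in L − N (log2 fold change 4.40, SE 0.774, edgeR adjusted p = 0.0162) and NELL2 measured 168, 157 and 96.4 CPM in H + N and 17.6, 14.6 and 8.06 CPM in L − N (log2 fold change 3.39, SE 0.612, edgeR adjusted p = 0.0173). CRABP1, a binding protein of retinoic acid, measured 106, 30.3 and 336 CPM in H + N and 11.7, 23.6 and 6.72 CPM in L − N, a log2 fold change of 3.49 (edgeR adjusted p = 0.03). GSTA1, a glutathione transferase, rose by 2.93 (edgeR adjusted p = 0.0232), ANKRD55 by 3.15 (edgeR adjusted p = 0.0381) and RP1 by 3.09 (edgeR adjusted p = 0.0235). CNGA2, a subunit of a cyclic nucleotide-gated channel, had at most 3 counts in each L − N library, and its mean in H + N was at least 5.35-fold higher than that floor. KIAA1024L was at least 7.74-fold higher in the same sense. By adjusted p, RORB, an orphan nuclear receptor, was among the leading genes, at 81.6, 62.9 and 102 CPM in H + N and 28.5, 21.6 and 29.02 CPM in L − N and a change of 1.64 (SE 0.223, edgeR adjusted p = 0.0136). PALM3 rose by 2.62 (edgeR adjusted p = 0.0136) from 2.36, 3.26 and 2.49 to 20.4, 14.3 and 15.1 CPM, and LRRN3, which lies within IMMP2L on the opposite strand, by 2.49 (edgeR adjusted p = 0.0136).

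Among growth factors and receptor kinases, 2 of 53 rose and none fell. VEGFA, the main angiogenic factor, measured 150.1, 71.8 and 216 CPM in H + N and 54.8, 45.8 and 44.5 CPM in L − N, a log2 fold change of 1.59 (SE 0.314, edgeR adjusted p = 0.0214). NTRK2, the receptor of BDNF, measured 111, 67.96 and 86.9 CPM in H + N and 36.5, 32.9 and 34.3 CPM in L − N and rose by 1.36 (edgeR adjusted p = 0.0225). BDNF itself was near the limit of detection, at 0.725, 0.217 and 0.245 CPM in H + N and 1.85, 0.752 and 3.43 CPM in L − N, and was not called (log2 fold change −2.34, edgeR adjusted p = 0.151). The VEGF receptors FLT1 (log2 fold change 0.55, edgeR adjusted p = 0.0747) and KDR (log2 fold change 0.06, edgeR adjusted p = 0.897) were not called, and endothelial markers had 0 of 11 called, with a median of −0.26. FGFR3 at 22.5, 20.97 and 32.8 CPM in H + N and 15.9, 10.3 and 10.3 CPM in L − N and PDGFD at 126, 67.5 and 123 CPM in H + N and 44.95, 60.1 and 41.8 CPM in L − N did not overlap but missed the threshold (log2 fold changes 1.06, edgeR adjusted p = 0.0586, and 1.11, edgeR adjusted p = 0.0998).

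In the vascular tone list 3 of 22 genes were called lower and none higher, with a median of −0.34. EDN1, the vasoconstrictor endothelin 1 (chromosome 7, 8752018 to 8758354), measured 13.2, 12.2 and 11.7 CPM in H + N and 40.5, 41.8 and 42.5 CPM in L − N. The libraries of each group were close together, and the log2 fold change of −1.75 (SE 0.16, edgeR adjusted p = 0.00369) had the smallest adjusted p of all genes. In the other groups EDN1 averaged 20.4 CPM (L + N) and 22.4 CPM (H − N). EDNRB, one of its receptors, measured 53.8, 50.5 and 37.6 CPM in H + N and 72.9, 129.8 and 103 CPM in L − N (log2 fold change −1.11, edgeR adjusted p = 0.0337), and ADM, the vasodilator adrenomedullin, 9.36, 9.89 and 15.3 CPM in H + N and 19.7, 57.3 and 39.6 CPM in L − N (log2 fold change −1.75, edgeR adjusted p = 0.0308). EDNRA, the receptor of smooth muscle, overlapped at 70.6, 93.98 and 53.1 CPM in H + N and 118, 77.6 and 74.4 CPM in L − N (log2 fold change −0.31, edgeR adjusted p = 0.437), and so did the converting enzyme ECE1 (log2 fold change −0.33, edgeR adjusted p = 0.403). EDN1 fell whichever library was left out, with a log2 fold change between −1.81 and −1.71.

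The PI3K-Akt pathway carries growth factor, integrin and cytokine signals to Akt, and its ligands, receptors and core kinases were listed apart. The study chose 27 ligands, receptors and targets of this pathway from the results of these samples, so their direction is not independent evidence. Of these, 6 rose (VEGFA, NTRK2, BRCA1, ITGB8, LAMA2 and MYB) and 5 fell (ITGB3, CSF1R, IL4R, TLR2 and LAMB3). ITGB8, an integrin that activates TGF-beta, measured 66.2, 60.4 and 44.9 CPM in H + N and 23.7, 24.2 and 21.6 CPM in L − N (log2 fold change 1.30, SE 0.302, edgeR adjusted p = 0.0302). LAMA2, a laminin of the muscle and stromal basement membrane, measured 398, 273 and 362 CPM in H + N and 156, 135 and 175 CPM in L − N (log2 fold change 1.15, SE 0.269, edgeR adjusted p = 0.0308), whereas LAMB3, a chain of the epithelial laminin, fell by 1.05 (edgeR adjusted p = 0.0491). ITGB3, the partner of the alpha-v integrin, stood at 12.4, 13.9 and 12.2 CPM in H + N and 25.98, 68.97 and 45.3 CPM in L − N (log2 fold change −1.86, edgeR adjusted p = 0.0193). The collagens COL1A1 (log2 fold change 1.13, edgeR adjusted p = 0.0886) and COL4A5 (log2 fold change 1.42, edgeR adjusted p = 0.05011), TNN (log2 fold change 1.89, edgeR adjusted p = 0.119) and SPP1 (log2 fold change −2.96, edgeR adjusted p = 0.104) were among the 16 members not called. DDIT4, an inhibitor of mTORC1, measured 56.8, 60.1 and 57.6 CPM in H + N and 127, 116 and 105 CPM in L − N, and its log2 fold change of −0.99 (SE 0.111, edgeR adjusted p = 0.0136) was short of the fold threshold.

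Of 37 core kinases and regulators of PI3K-Akt signaling, 0 were called in either direction by edgeR, and the median was −0.11. PIK3CA stood at 65.9, 53.1 and 54.9 CPM in H + N and 31.1, 45.2 and 48.02 CPM in L − N (log2 fold change 0.48, edgeR adjusted p = 0.247), AKT1 at 96.6, 109.5 and 132 CPM in H + N and 133, 158 and 151 CPM in L − N (log2 fold change −0.39, edgeR adjusted p = 0.0866), AKT2 at 99.9, 109.8 and 106 CPM in H + N and 110.2, 103 and 101 CPM in L − N (log2 fold change 0.01, edgeR adjusted p = 0.969) and MTOR at 84.04, 80.1 and 97.5 CPM in H + N and 88.4, 94.1 and 101 CPM in L − N (log2 fold change −0.11, edgeR adjusted p = 0.531). The adjusted p was under 0.05 for 5 of the 37, DDIT4 among them, each with a change under the fold threshold. RNA levels say nothing of the phosphorylation of these kinases. In the whole KEGG pathway of the deposited table, 6 of 289 genes were higher and 5 lower, shares near those of all genes tested (2.29% and 1.28%), and the median was −0.07.

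**Figure D4:**
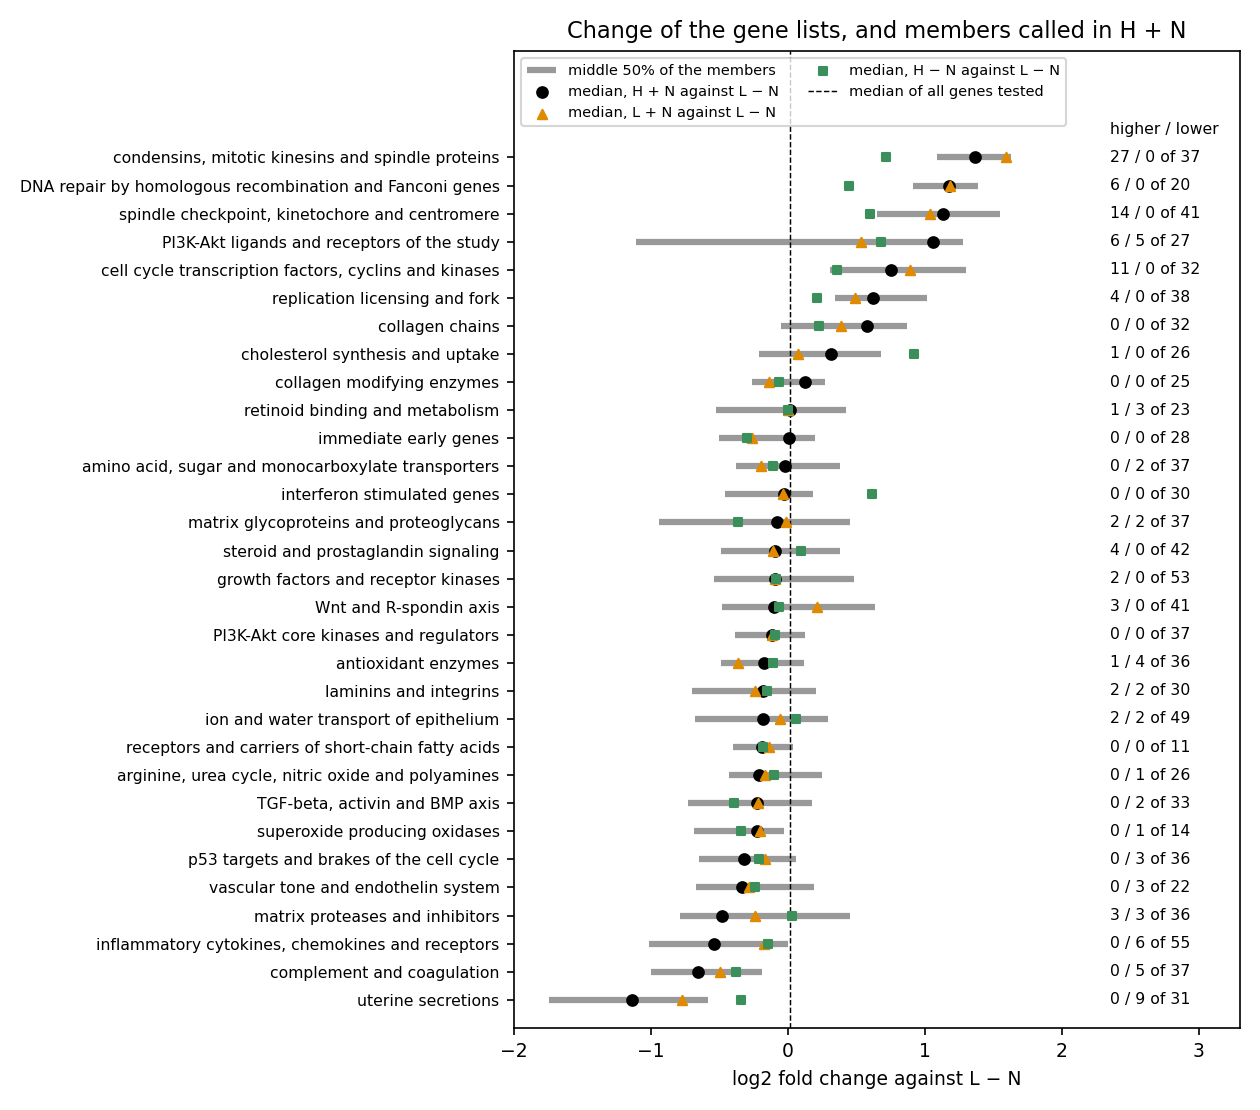
Median log2 fold change of 31 gene lists in H + N against L − N (circles) with the middle 50% of members (bars), and medians of L + N (triangles) and H − N (squares) against the same L − N libraries, with the number of members called higher and lower in H + N at the right. The condensin and spindle list lies farthest to the right at 1.37 and the uterine secretions farthest to the left at −1.14.

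The lists of growth factors, ion transport, transporters, arginine metabolism and cholesterol had no more than 2 genes called in a direction. Such counts are given for the genes named, beside 2.29% higher and 1.28% lower over all genes tested, and describe no change of the list.

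Collagens, which form the bulk of the endometrial matrix, leaned upward without a call. Of 32 chains tested 0 were called by edgeR, 23 had a positive fold change and the median was 0.58. COL3A1 measured 20438, 14636 and 25641 CPM in H + N and 12076, 9653 and 10255 CPM in L − N (log2 fold change 0.92, edgeR adjusted p = 0.0811), and COL1A1 measured 10108, 6518 and 15822 CPM in H + N and 5275, 4742 and 4852 CPM in L − N (log2 fold change 1.13, edgeR adjusted p = 0.0886), in both highest in H + N replicate 3. Without H + N replicate 3 the median of the chains was 0.29, and without L − N replicate 1, 4 chains were called higher and 1 lower. Among 25 collagen-modifying enzymes 0 were called by edgeR, and their median of 0.13 turned to −0.16 without H + N replicate 3. PLOD2, a lysyl hydroxylase, stood at 94.2, 80.8 and 142 CPM in H + N and 60.9, 41.9 and 53.9 CPM in L − N (log2 fold change 1.02, edgeR adjusted p = 0.114), and LOX, which crosslinks collagen, at 40.01, 58.3 and 38.6 CPM in H + N and 63.6, 39.8 and 51.6 CPM in L − N (log2 fold change −0.18, edgeR adjusted p = 0.711). Stromal markers had 1 of 13 called, which was VIM, the intermediate filament of mesenchymal cells, at 1222, 1295 and 1213 CPM in H + N and 3725, 2732 and 2269 CPM in L − N and −1.23 (SE 0.188, edgeR adjusted p = 0.0136).

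Matrix proteases and their inhibitors moved both ways, with 3 of 36 higher and 3 lower. ADAMTS9, a protease of versican and aggrecan, measured 270.3, 175 and 433 CPM in H + N and 101, 87.2 and 75.4 CPM in L − N and rose by 1.73 (SE 0.298, edgeR adjusted p = 0.0158). ADAMTS19 rose by 2.21 (edgeR adjusted p = 0.0396) although the groups overlapped, and MMP16, a membrane-bound metalloproteinase, by 1.36 (edgeR adjusted p = 0.0219). MMP7, the matrilysin of the glandular epithelium, measured 131, 139.6 and 54.02 CPM in H + N and 1173, 2006 and 789 CPM in L − N and fell by 3.61 (SE 0.803, edgeR adjusted p = 0.0275). TIMP2 fell by 1.22 (edgeR adjusted p = 0.0329) from 1240.0, 1347 and 1733 to 609, 881 and 363 CPM. MMP2 at 1939, 2494 and 2148 CPM in H + N and 2732, 4183 and 4346 CPM in L − N did not overlap but was not called (log2 fold change −0.77, edgeR adjusted p = 0.0731). Of 37 matrix glycoproteins and proteoglycans, 2 rose (NELL1 and NELL2, given above), 2 fell and 33 were not called. Their median of −0.08 turned to 0.30 without L − N replicate 1. CTHRC1, which limits collagen deposition, measured 1.91, 3.31 and 1.84 CPM in H + N and 12.5, 35.9 and 17.5 CPM in L − N (log2 fold change −3.21, SE 0.399, edgeR adjusted p = 0.0136), and PAMR1 fell by 2.16 (SE 0.399, edgeR adjusted p = 0.018). PAMR1 overlaps FJX1 on the opposite strand, which also fell (log2 fold change −1.86, edgeR adjusted p = 0.0147). In the list of TGF-beta, activin and BMP genes, 2 of 33 fell (6.06%, beside 1.28% over all genes tested) and none rose. Its median was −0.22. NBL1, a secreted antagonist of BMP, measured 80.9, 124 and 91.4 CPM in H + N and 212, 358 and 352 CPM in L − N and fell by 1.64 (SE 0.214, edgeR adjusted p = 0.0136), and INHBB, the beta B subunit of inhibin and activin, measured 17.6, 38.9 and 42.4 CPM in H + N and 77.4, 74.2 and 70.3 CPM in L − N and fell by 1.17 (edgeR adjusted p = 0.031).

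Part of the secreted products of the endometrium were called lower in H + N. Of 31 genes in the list of uterine secretions, 9 fell, none rose and 22 were not called, with a median of −1.14. ACP5, which encodes uteroferrin, the iron-carrying acid phosphatase of the uterine glands, measured 68.3, 109 and 109.9 CPM in H + N and 139, 469 and 441 CPM in L − N (log2 fold change −1.87, SE 0.389, edgeR adjusted p = 0.0234). L − N replicate 1 was the lowest of its group, yet above every H + N library. CLU, the chaperone clusterin, measured 748, 986 and 431 CPM in H + N and 2557, 7041 and 3353 CPM in L − N (log2 fold change −2.58, SE 0.447, edgeR adjusted p = 0.0158), and NPC2, a lysosomal and secreted cholesterol carrier, 189, 263 and 175 CPM in H + N and 376, 612 and 731 CPM in L − N (log2 fold change −1.45, SE 0.251, edgeR adjusted p = 0.0158). The cathepsin CTSH fell by 1.68 (edgeR adjusted p = 0.0316) and the cathepsin CTSB fell by 1.34 (edgeR adjusted p = 0.0412). CTSB measured 1199, 1331 and 1149.8 CPM in H + N and 1239.7, 4031 and 4071 CPM in L − N, and L − N replicate 1 lay within the H + N range. WFDC2, a secreted whey acidic protein family member, measured 15.8, 8.75 and 13.9 CPM in H + N and 20.9, 288 and 55.7 CPM in L − N (log2 fold change −3.25, edgeR adjusted p = 0.0344). GPX3, the secreted glutathione peroxidase, measured 3.36, 15.5 and 3.49 CPM in H + N and 64.4, 46.96 and 29.8 CPM in L − N (log2 fold change −2.65, SE 0.549, edgeR adjusted p = 0.0232), and DEFB128, a beta-defensin, 0.461, 0.163 and 0.184 CPM in H + N and 2.101, 13.6 and 8.46 CPM in L − N (log2 fold change −4.89, SE 0.778, edgeR adjusted p = 0.0154). UABP-2, the uteroferrin-associated protein, had at most 3 counts in each H + N library and was at least 6.83-fold lower than in L − N. Several of these genes, among them ACP5, CTSB, CTSH and NPC2, are also expressed by macrophages, whose markers were higher in L − N replicates 2 and 3. GPX3 was highest in L − N replicate 1. The part of macrophages in these changes was not tested. Without L − N replicate 1, 13 members were called lower and the median was −1.36. Without L − N replicate 3 it was 0 members and −1.12.

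Ion and water transport of the epithelium had 2 of 49 higher, SLC26A4 and CNGA2, and 2 lower. KCNJ1, a potassium channel, measured 7.25, 1.90 and 0.736 CPM in H + N and 10.3, 134 and 21.2 CPM in L − N (log2 fold change −4.08, edgeR adjusted p = 0.0346), and CA12, a carbonic anhydrase, 9.23, 6.46 and 6.25 CPM in H + N and 7.70, 95.1 and 55.1 CPM in L − N (log2 fold change −2.85, edgeR adjusted p = 0.0429). In both, L − N replicate 2 was the highest of its group, and CA12 of L − N replicate 1 lay within the H + N range. CA12 overlaps APH1B on the opposite strand. Among amino acid, sugar and monocarboxylate transporters, 2 of 37 fell. SLC7A7, which exports arginine and lysine, measured 25.8, 33.2 and 20.97 CPM in H + N and 49.5, 58.6 and 68.5 CPM in L − N (log2 fold change −1.14, SE 0.204, edgeR adjusted p = 0.0168), and SLC1A1, a glutamate transporter, fell by 1.88 (edgeR adjusted p = 0.0469). SLC7A1, the main importer of arginine, overlapped at 35.3, 50.6 and 78.7 CPM in H + N and 48.1, 31.7 and 24.99 CPM in L − N (log2 fold change 0.65, edgeR adjusted p = 0.174).

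The arginine list, which the supplement NCG addresses, had 1 of 26 called. ASL, the argininosuccinate lyase that releases arginine, measured 9.16, 10.5 and 7.97 CPM in H + N and 16.2, 19.9 and 19.5 CPM in L − N and fell by 1.01 (SE 0.173, edgeR adjusted p = 0.0158). CPS1, NAGS and OTC, which serve the mitochondrial steps of the urea cycle, were not among the genes tested. ASS1 was at 8.04, 8.85 and 6.25 CPM in H + N and 14.7, 7.84 and 12.1 CPM in L − N (log2 fold change −0.58, edgeR adjusted p = 0.447), the nitric oxide synthase NOS3 at 12.7, 19.1 and 14.7 CPM in H + N and 21.7, 13.6 and 13.6 CPM in L − N (log2 fold change −0.07, edgeR adjusted p = 0.906) and ODC1, the first enzyme of polyamine synthesis, at 88.5, 98.4 and 131 CPM in H + N and 67.04, 96.1 and 67.1 CPM in L − N (log2 fold change 0.46, edgeR adjusted p = 0.129). The list median was −0.21. Of 11 receptors and carriers of short-chain fatty acids tested, 0 were called by edgeR. FFAR2 was below 2 CPM in every library, at 0.396, 0.435 and 1.04 CPM in H + N and 0.318, 1.19 and 0.672 CPM in L − N (log2 fold change −0.22, edgeR adjusted p = 0.887), SLC16A1 stood at 35.1, 27.6 and 62.9 CPM in H + N and 26.5, 58.2 and 35.3 CPM in L − N (log2 fold change 0.07, edgeR adjusted p = 0.919), and FFAR3 was not among the genes tested.

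Among 36 antioxidant enzymes, 4 fell and 1 rose, with a median of −0.18. SOD3, the extracellular superoxide dismutase, measured 21.7, 32.3 and 17.4 CPM in H + N and 123, 57.4 and 66.9 CPM in L − N (log2 fold change −1.79, SE 0.39, edgeR adjusted p = 0.0264). HMOX1, the heme oxygenase induced by stress, measured 24.6, 39.3 and 14.9 CPM in H + N and 52.5, 128 and 81.6 CPM in L − N (log2 fold change −1.73, SE 0.35, edgeR adjusted p = 0.0225), and SRXN1, which repairs peroxiredoxins, fell by 1.14 (edgeR adjusted p = 0.0218). GPX3, described above, was the fourth, and GSTA1 was the gene that rose. The dismutases and catalase inside the cell were not called, with SOD1 at 53.7, 51.7 and 54.1 CPM in H + N and 69.1, 72.5 and 57.5 CPM in L − N (log2 fold change −0.32, edgeR adjusted p = 0.11), SOD2 at 47.4, 44.5 and 47.4 CPM in H + N and 58.4, 75.4 and 73.1 CPM in L − N (log2 fold change −0.57, edgeR adjusted p = 0.264) and CAT at 261, 243 and 193 CPM in H + N and 239, 268 and 273 CPM in L − N (log2 fold change −0.16, edgeR adjusted p = 0.63). Of 14 genes of the superoxide-producing oxidases 1 fell and none rose, with a median of −0.23. A single gene called describes no change of that list. In cholesterol synthesis and uptake, FDPS, the farnesyl diphosphate synthase, was the gene called among 26, at 77.8, 32.5 and 104 CPM in H + N and 31.7, 30.2 and 25.9 CPM in L − N and 1.29 (edgeR adjusted p = 0.04997). The list median was 0.31 in H + N and 0.92 in H − N against the same L − N libraries, and that of H + N was −0.10 without its replicate 3, with 10 of 26 genes positive in place of 17. Of 23 genes of retinoid binding and metabolism, 3 fell, 1 rose and 19 were not called. The list median was 0.01 and turned to −0.27 without H + N replicate 2, so the list as a whole had no direction. The retinol dehydrogenase RDH10 fell by 1.80 (edgeR adjusted p = 0.0229), the reductase DHRS3 fell by 1.22 (edgeR adjusted p = 0.016), RARRES1 fell by 1.36 (edgeR adjusted p = 0.0406), and CRABP1 rose.

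Some macrophage, complement and innate receptor genes were called lower in H + N, and most of their lists were not called. Of 14 macrophage markers 4 fell and all 14 had a negative fold change, with a median of −1.04. Against the same L − N libraries the median was −0.97 in L + N and −1.60 in H − N. Set directly against H − N, H + N had a median of 0.43. CD163, the hemoglobin scavenger receptor, measured 146, 197 and 138 CPM in H + N and 186, 690.3 and 692 CPM in L − N (log2 fold change −1.71, SE 0.412, edgeR adjusted p = 0.0332), with L − N replicate 1 inside the H + N range. CSF1R, the receptor on which macrophages depend, measured 119, 130.3 and 90.9 CPM in H + N and 159.7, 326 and 381 CPM in L − N (log2 fold change −1.35, SE 0.304, edgeR adjusted p = 0.0284), and CD14, the co-receptor for lipopolysaccharide, 13.4, 17.2 and 14.7 CPM in H + N and 22.7, 40.8 and 49.03 CPM in L − N (log2 fold change −1.31, SE 0.26, edgeR adjusted p = 0.0218). For CSF1R and CD14 all L − N libraries lay above all H + N libraries. C1QC of the first complement component fell by 1.06 (edgeR adjusted p = 0.0493) with overlap, whereas CD68 (log2 fold change −0.65, edgeR adjusted p = 0.326) and MRC1 (log2 fold change −1.03, edgeR adjusted p = 0.0924) were not called. SPI1, the transcription factor of the myeloid lineage, fell by 1.26 (edgeR adjusted p = 0.0403). Without L − N replicate 1, 10 of the 14 markers were called lower, and without L − N replicate 3, 0.

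Of 37 complement and coagulation genes 5 fell and none rose (median −0.66). Against the same L − N libraries the median was −0.50 in L + N and −0.38 in H − N. CFD, the adipsin that opens the alternative pathway, measured 38.96, 46.4 and 30.9 CPM in H + N and 79.8, 144 and 94.2 CPM in L − N (log2 fold change −1.45, SE 0.248, edgeR adjusted p = 0.0158), though it overlaps MED16 on the opposite strand. A2M, a broad protease inhibitor, fell by 1.02 (edgeR adjusted p = 0.0458) and F13A1, the transglutaminase that stabilizes fibrin, fell by 1.52 (edgeR adjusted p = 0.0459). C3 overlapped, at 633, 807 and 391.9 CPM in H + N and 447, 1313 and 1901 CPM in L − N (log2 fold change −0.999, edgeR adjusted p = 0.338). Of 55 inflammatory cytokines, chemokines and receptors 6 fell and none rose (median −0.54). Beside CSF1R these were the Toll-like receptors TLR2 (log2 fold change −1.32, edgeR adjusted p = 0.0316), TLR7 (log2 fold change −1.51, edgeR adjusted p = 0.0452) and TLR9 (log2 fold change −1.64, edgeR adjusted p = 0.0247), CXCL16 (log2 fold change −1.22, edgeR adjusted p = 0.0392) and IL4R. IL4R, the receptor for interleukins 4 and 13, measured 24.5, 34.2 and 34.6 CPM in H + N and 53.2, 74.9 and 65.7 CPM in L − N (log2 fold change −1.05, SE 0.239, edgeR adjusted p = 0.0288). TLR7 overlaps TLR8 and TLR9 overlaps TWF2 on the same strand. The cytokines IL1B, at 1.32, 0.869 and 0.797 CPM in H + N and 1.97, 0.439 and 2.01 CPM in L − N (log2 fold change −0.57, edgeR adjusted p = 0.645), and TNF, at 0.725, 0.869 and 1.16 CPM in H + N and 0.764, 1.76 and 1.75 CPM in L − N (log2 fold change −0.62, edgeR adjusted p = 0.588), were low and were not called. Interferon-stimulated genes had 0 of 30 called by edgeR and a median of −0.03. The macrophage sum stood at 1539 CPM in L − N replicate 1 and at 3914 and 4084 CPM in replicates 2 and 3, and its part in these differences was not tested.

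The lysosome was the KEGG pathway with the largest share of genes called lower, among 286 pathways of 20 to 300 genes tested. It had 11 of 119 lower and none higher, and a median of −0.46. CTNS, the cystine exporter of lysosomes, measured 22.2, 26.1 and 19.5 CPM in H + N and 44.8, 67.5 and 69.3 CPM in L − N (log2 fold change −1.42, SE 0.187, edgeR adjusted p = 0.0136), and overlaps SHPK and TAX1BP3 on the opposite strand. HEXA, a subunit of the ganglioside-degrading hexosaminidase, fell by 1.09 (edgeR adjusted p = 0.0177). PSAP, the precursor of the saposins, measured 1085, 1307 and 867 CPM in H + N and 1538, 3241 and 2838 CPM in L − N (log2 fold change −1.22, SE 0.254, edgeR adjusted p = 0.0232), and CTSK, a collagen-degrading cathepsin, 698, 1214 and 490.0 CPM in H + N and 1437, 4528 and 4536 CPM in L − N (log2 fold change −2.13, SE 0.512, edgeR adjusted p = 0.0332). Without L − N replicate 1, 25 lysosome genes were called lower. PMEL, which was named after its values were seen, measured 30.7, 42.6 and 16.6 CPM in H + N and 24.00, 659 and 663 CPM in L − N (log2 fold change −3.90, edgeR adjusted p = 0.0526), so that L − N replicates 2 and 3 were high again. MLANA, a melanosome protein, measured 0, 0.217 and 0.307 CPM in H + N and 0.382, 6.83 and 5.78 CPM in L − N and fell by 4.55 (edgeR adjusted p = 0.0466). TRPM1, a cation channel of pigment cells and retina, measured 1.65, 1.30 and 0.674 CPM in H + N and 2.42, 27.6 and 13.1 CPM in L − N and fell by 3.57 (edgeR adjusted p = 0.0252).

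**Figure D5:**
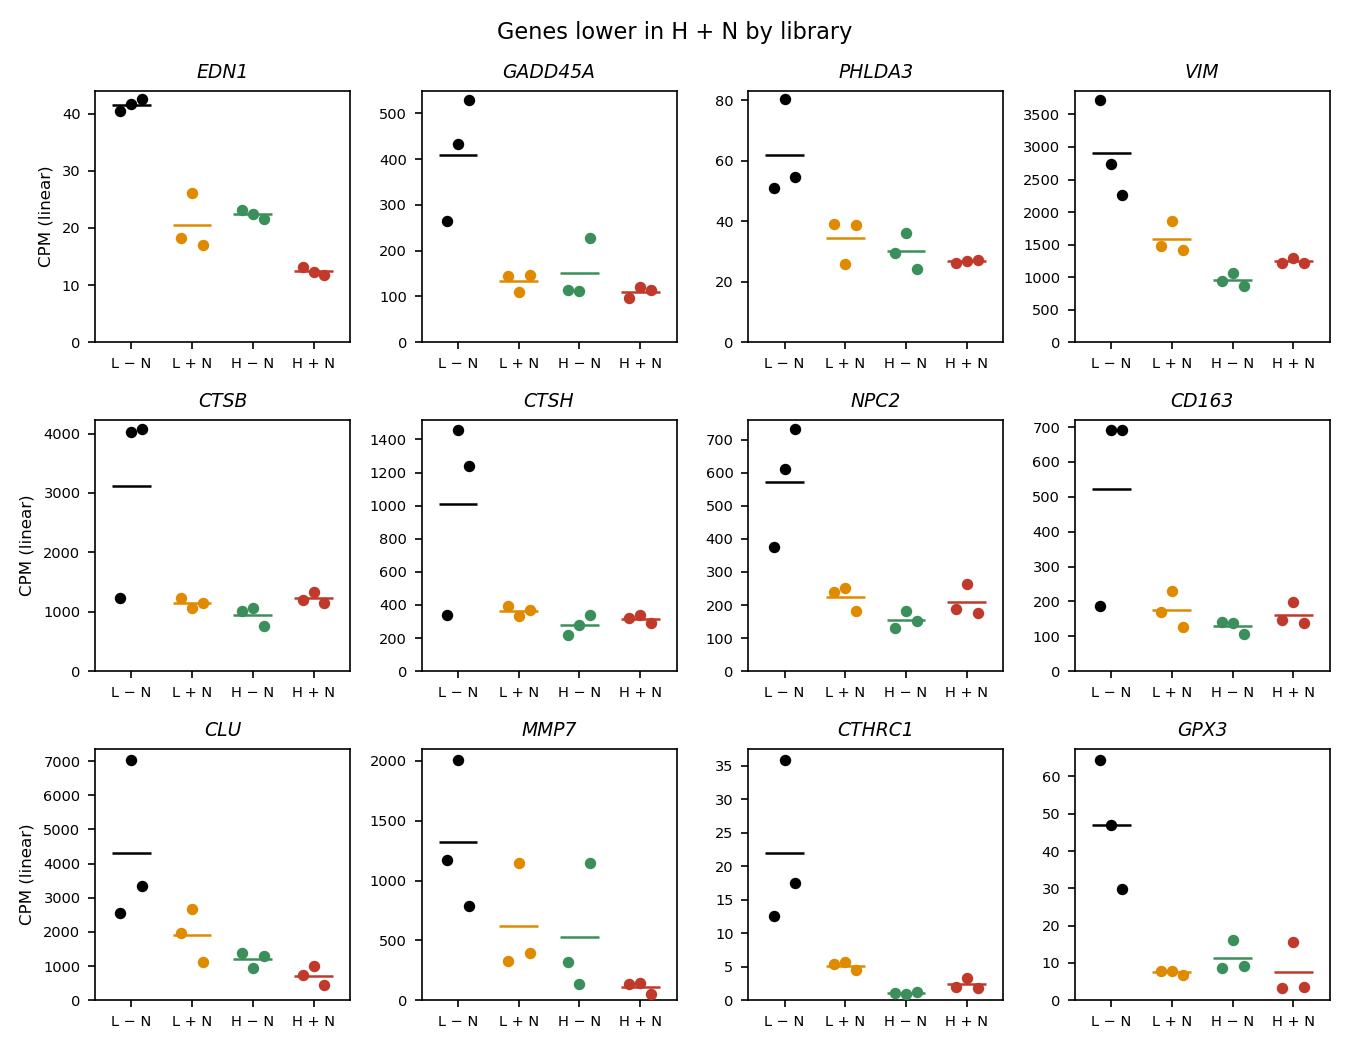
CPM of 12 genes in each library (points) with the group mean (bars) in the 4 diet groups, on linear axes that start at 0. EDN1 is tight within groups, at 40.5 to 42.5 CPM in L − N and 11.7 to 13.2 CPM in H + N, whereas for CTSB, CTSH and CD163 the replicates 2 and 3 of L − N lie far above replicate 1.

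In the remaining KEGG pathways the shares called lower were highest for complement and coagulation cascades (5 of 64), the hematopoietic cell lineage (6 of 78), retinol metabolism (2 of 26) and Toll-like receptor signaling (6 of 85). The largest shares called higher were those of the cell cycle (13 of 118, with GADD45A as the 1 lower gene), oocyte meiosis (11 of 103), the Fanconi anemia pathway (5 of 48), homologous recombination (4 of 39), p53 signaling (6 of 67) and DNA replication (3 of 34). With 1 library of the 2 groups left out, the median log2 fold change was 0.21 to 0.29 for the cell cycle and 0.24 to 0.52 for DNA replication. For the biological process of mitotic spindle organization it was 0.27 to 0.39. Oocyte meiosis and progesterone-mediated oocyte maturation (7 of 82) share their called genes with the cell cycle in part, such as BUB1 and CCNB2, and the second adds PGR. GnRH secretion had 2 of 58 higher and 1 lower. Beside 2.29% higher and 1.28% lower over all genes tested, these few genes describe no change of that pathway. Phagosome had 5 of 127 lower and 1 higher, with a median of −0.41. Ribosome (0 of 120) and oxidative phosphorylation (0 of 123) held no called gene by edgeR, with medians of 0.04 and −0.07.

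Among 699 Gene Ontology biological processes of 20 to 300 genes, centriole replication and chromosome organization had the largest shares called higher, each with 5 of 20. Centriole replication included PLK4, the kinase that starts the new centriole, at 15.6, 14.2 and 14.8 CPM in H + N and 3.25, 8.46 and 4.97 CPM in L − N (log2 fold change 1.42, edgeR adjusted p = 0.029), with CEP135 (log2 fold change 1.39, SE 0.178, edgeR adjusted p = 0.0136), CCP110 (log2 fold change 1.22, edgeR adjusted p = 0.0158) and SASS6 (log2 fold change 1.15, edgeR adjusted p = 0.0222). SASS6 overlaps TRMT13 and MFSD14A on the opposite strand. Microtubule-based movement had 15 of 63 higher, among them DYNC2H1, the motor of transport inside cilia, at 28.7, 34.3 and 26.3 CPM in H + N and 14.2, 11.9 and 10.5 CPM in L − N (log2 fold change 1.29, SE 0.221, edgeR adjusted p = 0.0158), and KIF3A (log2 fold change 1.17, edgeR adjusted p = 0.0168), beside the mitotic kinesins. Non-motile cilium assembly had 6 of 33 higher, with PCM1, the scaffold of centriolar satellites, at 117, 121 and 111 CPM in H + N and 44.6, 51.9 and 53.5 CPM in L − N (log2 fold change 1.22, SE 0.204, edgeR adjusted p = 0.0158), TBC1D32 (log2 fold change 1.56, edgeR adjusted p = 0.0158) and IFT74 (log2 fold change 1.19, edgeR adjusted p = 0.018). LCA5, a ciliary protein, rose by 1.69 (SE 0.223, edgeR adjusted p = 0.0136).

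Motile cilia are carried by a subset of the luminal and glandular epithelium, and a list of their markers was examined. Of 15 markers 1 rose, all 15 had a positive fold change and the median was 0.90. Leaving out H + N replicate 2 lowered the median to 0.30, with 10 of 15 positive, and leaving out replicate 2 of L − N lowered it to 0.52. CCDC39, which sets the ruler of the ciliary axoneme, measured 4.02, 3.53 and 3.07 CPM in H + N and 0.637, 0.564 and 0.672 CPM in L − N (log2 fold change 2.49, SE 0.498, edgeR adjusted p = 0.0222) and overlaps TTC14 on the opposite strand. FOXJ1, the master regulator of motile cilia, overlapped at 41.5, 109 and 58.98 CPM in H + N and 101, 24.2 and 44.5 CPM in L − N (log2 fold change 0.31, edgeR adjusted p = 0.725). The change of FOXJ1 turned to −0.19 without H + N replicate 2. DNAH5 also overlapped, at 50.6, 83.9 and 67.3 CPM in H + N and 56.3, 18.6 and 41.1 CPM in L − N (log2 fold change 0.80, edgeR adjusted p = 0.265). The summed markers were 237, 587 and 298 CPM in H + N and 360.1, 103 and 222 CPM in L − N, so that the groups overlapped.

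Biological processes with the largest shares called lower were positive regulation of tumor necrosis factor production (5 of 25: CLU, CD14, LY96, SPON2 and TLR9), adult walking behavior (3 of 20: CTNS, HEXA and UCHL1), positive regulation of the intrinsic apoptotic signaling pathway (3 of 23) and lysosome organization (3 of 24). LY96, the partner of TLR4 in sensing lipopolysaccharide, measured 31.9, 38.8 and 22.9 CPM in H + N and 51.00, 70.8 and 67.6 CPM in L − N (log2 fold change −1.02, SE 0.21, edgeR adjusted p = 0.0232), while TLR4 itself changed by −0.92 (edgeR adjusted p = 0.0412), under the fold threshold. UCHL1, a ubiquitin hydrolase, measured 5.34, 6.63 and 5.09 CPM in H + N and 9.93, 53.3 and 32.4 CPM in L − N (log2 fold change −2.49, edgeR adjusted p = 0.0287), again high in L − N replicates 2 and 3.

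Among lower genes with the smallest adjusted p were also RAB31, a small GTPase of vesicle traffic, at 209, 227 and 175 CPM in H + N and 411, 965 and 1042 CPM in L − N (log2 fold change −1.99, SE 0.29, edgeR adjusted p = 0.0136), ABHD4, a lipase, at 22.2, 28.7 and 17.9 CPM in H + N and 51.3, 57.1 and 62.2 CPM in L − N (log2 fold change −1.31, SE 0.173, edgeR adjusted p = 0.0136), and MAFF, a small partner of NRF2, at 12.99, 11.95 and 8.52 CPM in H + N and 26.2, 34.9 and 40.2 CPM in L − N (log2 fold change −1.60, SE 0.226, edgeR adjusted p = 0.0136). HOMER3, ARRDC2 and PLEKHO1 also fell, with log2 fold changes of −1.30, −1.01 and −1.28. In all of these the 3 libraries of H + N lay below the 3 of L − N, and the mean of RAB31 was 234 CPM in L + N and 201 CPM in H − N. The immediate early genes, which respond within minutes to handling of tissue, had 0 of 28 called by edgeR and a median of 0.01. The edgeR adjusted p was under 0.05 for 2 of them. Whether handling differed between the groups was not tested.

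H + N was also set against each diet that shares 1 of its changes, which asks what the second change added. Against H − N, which differs by NCG, 0 genes were called by edgeR (smallest adjusted p 0.451, 1331 genes at an unadjusted p under 0.05), and DESeq2 called 26. Against L + N, which differs by fiber, 0 genes were called by edgeR (smallest adjusted p 0.91, 719 genes at an unadjusted p under 0.05), and DESeq2 called 2. The interaction, which tests whether the joint change departs from the sum of the separate changes, called 0 genes by edgeR (smallest adjusted p 0.182, 1967 genes at an unadjusted p under 0.05) and 186 by DESeq2. Without L − N replicate 1 the interaction called 346 genes by edgeR. With 3 libraries a group, differences smaller than the spread between them could not be detected, and a call absent here does not show that the diets acted alike.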

How the data were processed

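Strand-specific poly(A) libraries were made from sow endometrium, and the 12 libraries were assigned to 4 diets by the codes in their titles. The table deposited by the authors held raw read counts per gene, and beside them FPKM values that matched those counts scaled by library total and gene length. Per the submitters' processing notes, reads were trimmed with fastp 0.22.0, aligned with HISAT2 2.1.0 to Sscrofa11.1 and counted with HTSeq 0.9.1. The strand setting of the counting was not given in the sources used here.

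Counts were tested with edgeR 4.0.16 (quasi-likelihood F test, limma 3.58.1, R 4.3.3) after filtering by expression and TMM scaling. The model held 4 group means over 12 libraries and left 8 residual degrees of freedom, with a biological coefficient of variation of 0.269. Adjusted p-values (Benjamini-Hochberg) covered all genes tested. CPM were computed with the TMM factors. A library with no more than 3 counts was treated as at the floor, for counting error only. DESeq2 1.42.0 was run as an alternative, as were RLE scaling, no filter, no fold threshold, the 6 libraries alone, a replicate block and each library left out. The scripts were tested on simulated data.

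The gene lists and the rule for named genes were chosen with earlier results of these data known. The rule named genes of the study's text, 12 called genes at each end of the fold changes (no overlap, a group mean of 1 CPM or more, a symbol that does not start with LOC), 10 per direction by adjusted p, called members of the lists and of the leading pathways and processes, abundant genes, and list members needed for their role. Pathways and processes came from the annotation columns of the table (7832 genes with a KEGG pathway, 14733 with a biological process), for terms of 20 to 300 tested genes. List summaries left out genes whose symbol stood on more than 1 row. FPKM were used for levels compared between genes. Results for a few genes are not reported here.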

Additional observations from a re-analysis of the deposited data

How the results depend on the processing

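The number of calls in H + N against L − N (549, with 352 higher and 197 lower) depended on the tool and on the libraries. DESeq2 called 1000 genes on the 12 libraries (595 higher, 405 lower) and 837 on the 6 libraries (491 higher, 346 lower). edgeR on the 6 libraries alone, with fewer residual degrees of freedom, called 87 (62 higher, 25 lower), and without the fold threshold it called 1223 on the 12 libraries (661 higher, 562 lower). RLE scaling gave 552 and no filter on low counts gave 508. When single libraries were left out, the count ranged from 1 to 948, that of higher genes from 0 to 455 and that of lower genes from 1 to 493. All 549 calls kept their direction under every alternative that tested them, as follows for most from groups that do not overlap. DESeq2 called 26 genes against H − N, 2 against L + N and 186 in the interaction, where edgeR called 0. The interaction ranged from 0 to 346 genes in the same fits, with 346 without L − N replicate 1 and 1 without H − N replicate 3. No called value changed sign, but the medians of 13 of 43 lists and the fold changes of 8 named genes that were not called did so without 1 library. The smooth muscle median turned from −1.003 to 0.04 without L − N replicate 1, and SLC16A1 and FFAR2 ranged from −0.35 to 0.44 and from −0.80 to 0.33. The cause of these differences between settings was not tested.

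Same-numbered libraries did not deviate together (correlations of −0.137, −0.322 and −0.0206), so the numbers were not taken to pair the samples. With the replicate block edgeR called 397 genes (266 higher, 131 lower), of which 377 were among the 549, and 0 in the other comparisons. Depth of 15155660 to 17714918 reads limited genes of few counts, where 3 counts were the floor.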

Other observations

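By FPKM, which allows genes to be set side by side, the most abundant transcripts of both groups were the mitochondrial COX3, COX1 and COX2, followed by EEF1A1, the elongation factor that carries aminoacyl-tRNA. COX3 averaged 7769.6 ± 1045 FPKM in H + N and 8024 ± 265 FPKM in L − N (SD, n = 3). COL3A1, the fibrillar collagen of soft tissue, was the leading matrix gene, at 4212 ± 985 FPKM in H + N and 2150.0 ± 324 FPKM in L − N. The ferritin chains FTL and FTH1, which store iron, averaged 2098 ± 645 and 2103 ± 424 FPKM in H + N against 4119 ± 1621 and 2971 ± 678 FPKM in L − N, and neither was called.

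Lymphocyte, mast cell and neutrophil genes gave no call in 14 markers of T and NK cells, 11 of B and plasma cells, 4 of mast cells and 9 of neutrophils by edgeR. The T and NK cell markers summed to 154, 163 and 227 CPM in H + N and to 76.0, 283 and 167 CPM in L − N. The neutrophil markers were scarce, at 18.4, 20.1 and 40.6 CPM in H + N and 56.3, 73.4 and 44.5 CPM in L − N, where all L − N libraries lay above those of H + N. The interferon-stimulated genes had a log2 median of −0.03 for H + N and 0.61 for H − N against the same L − N libraries. HEMGN, a nuclear protein of blood precursors, rose by 1.10 (edgeR adjusted p = 0.0182) at 9.82, 9.89 and 10.97 CPM in H + N and 5.73, 4.64 and 3.90 CPM in L − N, while hemoglobin did not follow that order.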
